A study of Homo sapiens with 6 samples.

Results

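The genes described are 10 cell surface markers used to recognise or sort pluripotent and tumour-initiating cells: PODXL, EPCAM, CD24, PROM1, CD44, THY1, ALCAM, CD9, ABCG2 and LGR5. They were taken by name from a table of 59653 gene symbols, in which all 10 had a row, and 9 of the 10 were among the 17592 genes with enough counts to be tested. LGR5 was not.

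The cells were PA1, an established human ovarian teratocarcinoma line, labelled wildtype in all libraries. Control cells received a negative control small interfering RNA (siRNA), and the others received siRNA against SOX2, a transcription factor of pluripotent cells. The design text names 2 SOX2 siRNAs and does not say whether they were pooled. Cells were transfected while attached, moved after 24 h to plates coated with poly-HEMA, which stops attachment, and harvested after another 72 h. Each group had 3 libraries of messenger RNA, so both groups share the transfection and the loss of anchorage, and no untransfected or attached cells are compared. The labels do not say that replicates were separate cultures, so p-values measure only the spread between these libraries. The experiment used 1 cell line and measured transcripts, not protein at the surface.

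Surface markers are proteins that an antibody or a dye can reach on a living cell, and they belong to unrelated families. PODXL and CD24 are heavily glycosylated, and sugar epitopes on podocalyxin are standard markers of human pluripotent cells. EPCAM, ALCAM, CD44, THY1 and CD9 take part in adhesion. PROM1 marks membrane protrusions, ABCG2 pumps dyes and drugs out of the cell, and LGR5 is a receptor for R-spondins that marks stem cells of the intestine. None of them marks stem cells in every tissue.

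Library totals lay between 25152313 and 32753184 counts and overlapped between groups (exact two-sided permutation p = 0.5). With 3 against 3 libraries that test cannot go below 0.1, so it could not have shown a difference at 0.05. SOX2 itself stood at 245, 265 and 256 counts per 1000000 of the scaled library total (CPM) in control replicates 1 to 3 and at 51.8, 54.9 and 50.6 CPM in SOX2 siRNA replicates 1 to 3. Several of the transcripts that identify PA1 as an embryonal line were present, with POU5F1 at 301 and LIN28A at 705 CPM on average in control. L1TD1 and DPPA4 of the same list were low, at 1.79 and 3.04 CPM on average in control. Of 8 tested genes of this identity list, POU5F1, LIN28A, LIN28B and DNMT3B were higher after SOX2 siRNA and SOX2 was lower. TDGF1 and ZFP42, also markers of such cells, were at 3 counts or fewer in every library. Among markers of other cell types, the summed level of 10 leukocyte genes ran from 3.73 to 16.1 CPM in control and from 3.06 to 19.3 CPM in SOX2 siRNA libraries, with LYZ as the largest part in every library. PTPRC, the pan-leukocyte marker, had 3 counts or fewer in every library, MS4A1 had 0, and CD14 was the 1 of 3 tested leukocyte genes that passed, rising from 0.363 to 0.672 CPM. That CD14 call was lost in 10 of its 15 alternative analyses.

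After SOX2 siRNA, 4 of the 9 tested markers were lower and 2 were higher, by edgeR's quasi-likelihood test at a Benjamini-Hochberg adjusted p under 0.05 over all tested genes. PODXL, CD24 and CD9 fell to about the same fraction of control, PROM1 fell slightly, ABCG2 rose by about 50% and THY1 rose slightly. CD44, ALCAM and EPCAM did not pass. Across all tested genes, 28.2% passed in either direction, 13.4% lower and 14.8% higher. The same 6 markers were those whose libraries did not overlap between groups, which held for 41.8% of all tested genes. The median log2 fold change was -0.12 over the 9 tested markers and -0.00085 over all tested genes. In bulk RNA, fewer cells carrying a marker and less RNA per cell cannot be told apart.

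**Figure D1:**
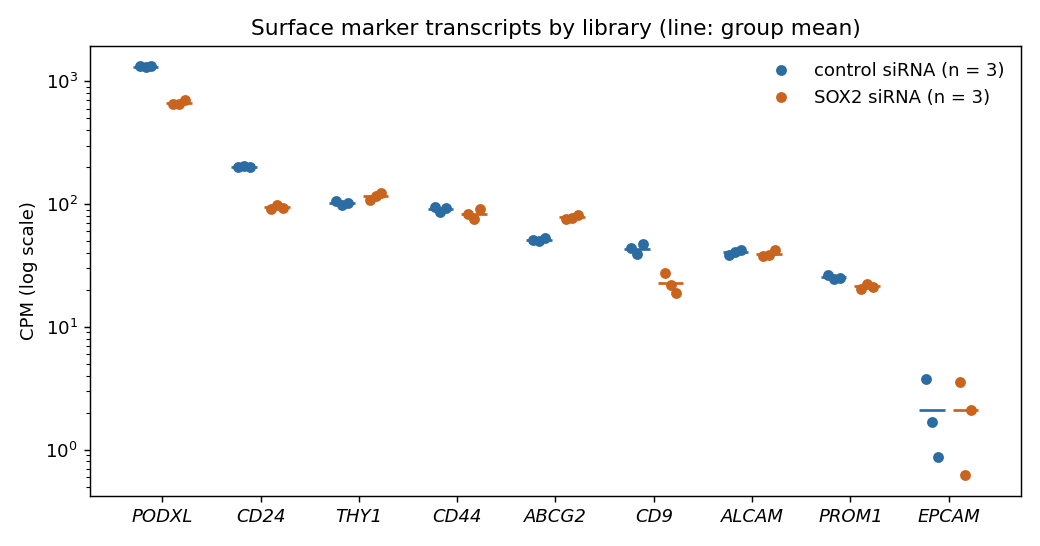
Transcript level of the 9 tested surface markers in each of the 6 libraries, in counts per 1000000 of the scaled library total (CPM) on a log axis; points are libraries and short lines are group means. The 3 SOX2 siRNA libraries lie below all controls for PODXL, CD24, CD9 and PROM1 and above them for ABCG2 and THY1, while EPCAM spreads widely in both groups.

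The sialomucin PODXL was the most abundant of the markers. PODXL encodes podocalyxin, a negatively charged membrane protein that lines the free surface of pluripotent and kidney podocyte cells, and lies at chr7:131500262-131558217 on the minus strand (GRCh38, GENCODE 29, as for all positions here). Raw PODXL counts were 43677, 32525 and 38308 in control and 19917, 21141 and 20911 after SOX2 siRNA. Scaled for depth, these were 1322, 1297 and 1324 CPM against 659, 653 and 699 CPM. Every SOX2 siRNA library was far below every control library. Mean PODXL expression went from 1314 ± 15.0 to 671 ± 25.1 CPM (SD, n = 3), leaving 51.0% of the control level. This was a log2 fold change of -0.97 (SE 0.035, 95% interval -1.05 to -0.90; edgeR adjusted p = 9.54e-13). Permuting the library labels exactly, two-sided, gave a permutation p of 0.1 for PODXL, which is as low as 3 against 3 libraries can reach.

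PODXL made up 70.2% of the summed CPM of the 10 markers in control and 59.5% after SOX2 siRNA. That sum fell from 1871 ± 26.3 to 1127 ± 40.1 CPM (SD, n = 3), and PODXL alone fell by 644 CPM.

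CD24 encodes a small glycoprotein held in the membrane by a glycosylphosphatidylinositol (GPI) anchor and is used as a marker of both pluripotent and cancer cells. It lies at chr6:106969831-106975627 on the minus strand. CD24 had 201, 204 and 202 CPM in control and 91.7, 97.4 and 93.1 CPM in SOX2 siRNA replicates 1 to 3. Control libraries differed from each other by 1.01-fold at most, while the groups stood 2.15-fold apart. The mean went from 202 ± 1.36 to 94.1 ± 2.94 CPM (SD, n = 3), a log2 fold change of -1.10 (SE 0.037, 95% interval -1.18 to -1.02; edgeR adjusted p = 3.47e-13). CD24 has pseudogene copies, among which reads can be shared, but the 3 copies with rows in the table had 2 counts or fewer in every library.

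CD9 encodes a tetraspanin, a protein that organises other membrane proteins into patches, and is used to sort pluripotent cells. It lies at chr12:6199715-6238271 on the plus strand. CD9 stood at 43.9, 39.2 and 47.0 CPM in control and at 27.6, 21.8 and 19.0 CPM in SOX2 siRNA libraries. The groups did not overlap, but the spread was wider than for PODXL or CD24. Its coefficient of variation was 9.11% in control and 19.2% in SOX2 siRNA libraries, against medians of 3.73% and 4.34% for tested genes within 1.5-fold of its level. For CD9 the log2 fold change was -0.93 (SE 0.16, 95% interval -1.33 to -0.53; edgeR adjusted p = 0.0106), with 52.5% of the control level left. Without SOX2 siRNA replicate 2 the call was lost at a log2 fold change of -0.90 (edgeR adjusted p = 0.0531).

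PROM1 encodes prominin-1, a multi-pass protein of membrane protrusions and a common sorting marker of tumour-initiating cells. It lies at chr4:15963076-16084378 on the minus strand. PROM1 stood at 26.5, 24.7 and 24.9 CPM in control and at 20.5, 22.5 and 21.2 CPM after SOX2 siRNA. All 3 SOX2 siRNA libraries were lower, by a small margin. Its log2 fold change was -0.25 (SE 0.059, 95% interval -0.37 to -0.12; edgeR adjusted p = 0.00449), so 84.4% of the control level remained. Its exons share 166 bases with FGFBP2 on the same strand, a gene that had 3 counts or fewer in every library.

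ABCG2, the efflux pump behind the dye-excluding side population of stem cells, went the other way. It lies at chr4:88090264-88231322 on the minus strand. ABCG2 stood at 50.8, 49.9 and 53.3 CPM in control and at 75.0, 77.7 and 81.5 CPM after SOX2 siRNA. Every SOX2 siRNA library exceeded every control. The mean rose from 51.3 ± 1.78 to 78.1 ± 3.27 CPM (SD, n = 3), a log2 fold change of 0.60 (SE 0.046, 95% interval 0.51 to 0.70; edgeR adjusted p = 1.93e-08).

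THY1, a GPI-anchored adhesion protein found on neurons, fibroblasts and human pluripotent cells, rose by a small amount. It lies at chr11:119417378-119424985 on the minus strand. THY1 stood at 105, 97.4 and 101 CPM in control and at 108, 115 and 123 CPM after SOX2 siRNA. The lowest SOX2 siRNA library was only just above the highest control. In log2 terms THY1 rose by 0.19 (SE 0.048, 95% interval 0.08 to 0.29; edgeR adjusted p = 0.00773). THY1 exons share 632 bases with AP003396.5 on the opposite strand, and whether counting used strand is not given in the sources used here.

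THY1 is also used as a fibroblast marker. Of 7 other fibroblast genes, 4 were tested, and PDGFRB, PDGFRA and COL1A1 were higher, with log2 fold changes of 1.89, 0.46 and 0.34 (edgeR adjusted p = 2.68e-15, 1.79e-05 and 0.0189). COL1A1 lost its call without control replicate 1 or SOX2 siRNA replicate 3, at a log2 fold change of 0.37 in both (edgeR adjusted p = 0.0715 and 0.0579), and without both replicate 1 libraries at 0.30 (edgeR adjusted p = 0.102). LUM, the other tested gene, was not called (log2 fold change 0.52, edgeR adjusted p = 0.114). Across all tested genes 14.8% were called higher. The summed level of the 7 genes ran from 315 to 361 CPM in control and from 491 to 540 CPM after SOX2 siRNA. COL1A1 was the largest part of that sum in every library. COL3A1 had 8 counts or fewer in every library and was not tested. DCN and FAP, also fibroblast genes, were at 4 counts or fewer in every library. The part of such cells in the THY1 difference was not tested.

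**Figure D2:**
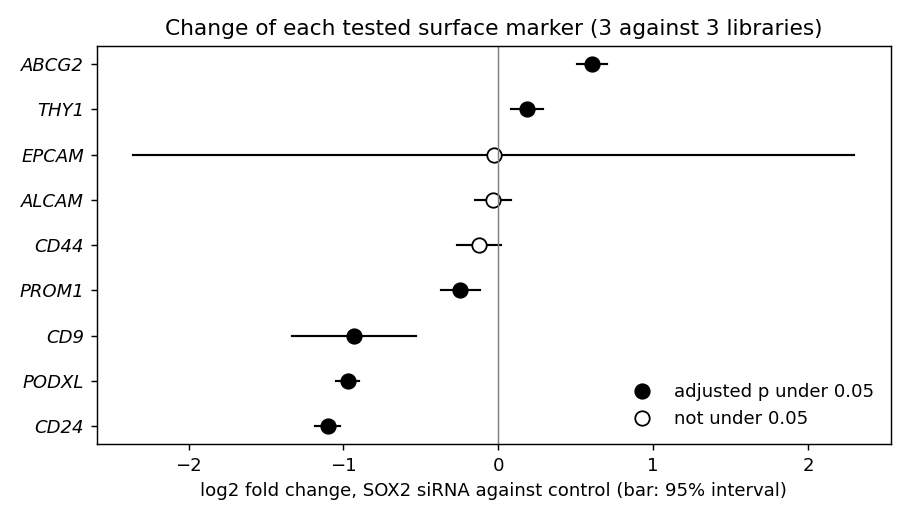
Log2 fold change of each tested surface marker, SOX2 siRNA against control, with its 95% interval from the edgeR fit (3 against 3 libraries); filled points have an adjusted p under 0.05. CD24, PODXL and CD9 lie near -1, ABCG2 lies at 0.60, and the EPCAM interval spans -2.36 to 2.30.

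The 3 markers that did not pass differed in how much the data say about them. ALCAM, an immunoglobulin-family adhesion molecule at chr3:105366909-105576900 on the plus strand, was the most tightly bounded. It stood at 38.6, 40.7 and 42.1 CPM in control and at 37.5, 38.5 and 42.4 CPM after SOX2 siRNA, and the groups overlapped. The log2 fold change was -0.036 with a 95% interval of -0.15 to 0.08 (edgeR adjusted p = 0.686).

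CD44, the main receptor for the matrix sugar hyaluronan, lies at chr11:35138870-35232402 on the plus strand. CD44 stood at 94.2, 86.9 and 92.3 CPM in control and at 83.3, 75.8 and 92.0 CPM after SOX2 siRNA, where replicate 3 lay among the controls. The log2 fold change was -0.12 (SE 0.064, 95% interval -0.27 to 0.017; edgeR adjusted p = 0.185). Without SOX2 siRNA replicate 3 it was -0.20 (edgeR adjusted p = 0.00608), and with no low-count filter beyond 1 count it also passed at -0.12 (edgeR adjusted p = 0.0466). Counts per gene do not separate CD44's standard form from its variant forms. ESRP1 and ESRP2, the splicing factors that favour variant exons in epithelial cells, had 10 counts or fewer in every library.

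EPCAM, an epithelial adhesion molecule and marker of undifferentiated pluripotent cells, lies at chr2:47345158-47387601 on the plus strand. EPCAM counts were only 123, 42 and 25 in control and 107, 20 and 63 after SOX2 siRNA, replicate 1 first. In CPM these were 3.72, 1.67 and 0.864 against 3.54, 0.618 and 2.11. Libraries of 1 group thus differed by 4.31-fold in control and 5.73-fold after SOX2 siRNA, while the group means were 2.09 ± 1.47 and 2.09 ± 1.46 CPM (SD, n = 3). The coefficient of variation was 70.6% in control, against a median of 13.1% for 1535 tested genes within 1.5-fold of its level. The log2 fold change was -0.030 with a 95% interval of -2.36 to 2.30 (edgeR adjusted p = 0.986), too wide to tell a 4-fold change from none. Its sign turned when 1 library was left out, to 0.73 without control replicate 1 and to 0.41 without SOX2 siRNA replicate 2 (edgeR adjusted p = 0.649 and 0.785).

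The level of EPCAM moved with that of 10 genes typical of stomach and intestine epithelium, a set chosen after its values were seen. REG4, CLCA1, TFF1, CLDN18, CEACAM6, TSPAN8, AGR2, ANXA10, S100P and LYZ had Pearson correlations with EPCAM between 0.929 and 0.998 over the 6 libraries, on log2 CPM, which share depth and scaling. REG4, a secreted lectin, stood at 10.1, 5.18 and 1.52 CPM in control and at 9.83, 0.865 and 5.65 CPM after SOX2 siRNA. LYZ, which encodes lysozyme, stood at 14.6, 13.9 and 2.11 CPM in control and at 17.9, 1.48 and 12.2 CPM after SOX2 siRNA. The sum of the 10 genes was 53.6, 34.7 and 7.26 CPM in control and 54.7, 4.76 and 34.4 CPM after SOX2 siRNA. Both replicate 1 libraries were highest, and control replicate 3 and SOX2 siRNA replicate 2 were lowest, as for EPCAM. Not every gene of such epithelium moved in this way. CDX2 stood at 11.9, 10.7 and 11.6 CPM in control and at 3.84, 3.58 and 4.38 CPM after SOX2 siRNA. KRT20 had 1 count or fewer in every library. CDH1, the epithelial cadherin, stood at 1.57, 1.16 and 1.14 CPM in control and at 1.56, 1.27 and 1.27 CPM after SOX2 siRNA. Its replicate 1 libraries were also the highest, over a narrower range than for EPCAM. The part of cells or RNA of another kind in the EPCAM values was not tested. With both replicate 1 libraries left out, an alternative chosen after seeing the data, the same counts of 4 lower and 2 higher markers were called, PODXL at -0.96, CD24 at -1.09, CD9 at -1.09, PROM1 at -0.19, ABCG2 at 0.62 and THY1 at 0.26.

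**Figure D3:**
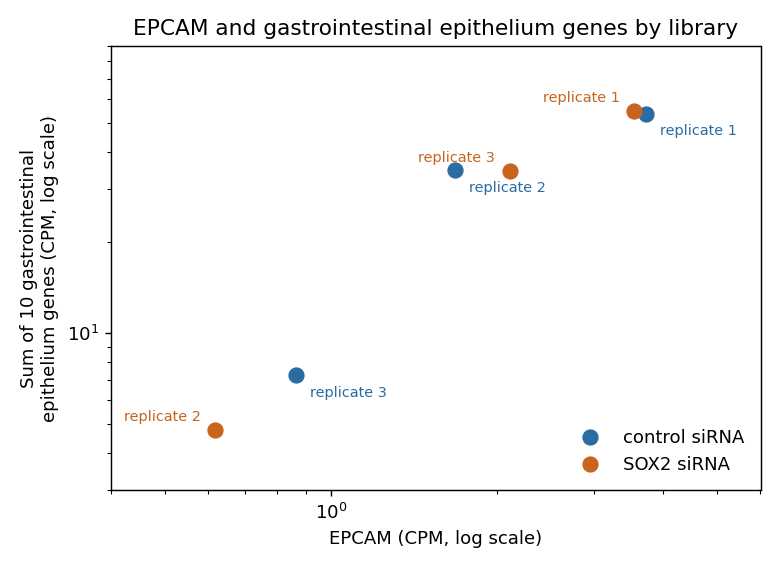
EPCAM level against the summed level of 10 gastrointestinal epithelium genes, chosen after their values were seen, in each of the 6 libraries (CPM, both axes log). Libraries high on 1 axis are high on the other in both groups, from 0.618 CPM of EPCAM in SOX2 siRNA replicate 2 to 3.72 CPM in control replicate 1.

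A list of 8 mature epithelium markers was at 16.1 to 19.5 CPM in control and 7.63 to 9.86 CPM after SOX2 siRNA in sum. Of its 3 tested genes, CDX2 and MUC1 were lower, with log2 fold changes of -1.54 and -0.50 (edgeR adjusted p = 3.37e-09 and 0.0152). MUC1 lost its call without control replicate 3 or SOX2 siRNA replicate 3, at log2 fold changes of -0.42 and -0.37 (edgeR adjusted p = 0.0836 and 0.0659). In control this sum was highest in replicate 3, where EPCAM was lowest. CDX2 was the largest part of it in every library, and MUC16 stood at 0.968, 0.478 and 2.07 CPM in control. TFF3, also of this list, had 16 counts or fewer in every library and followed the order of EPCAM in both groups. KRT14 had 0 counts in every library. After SOX2 siRNA the sum was 9.86, 7.63 and 9.13 CPM in replicates 1 to 3, the same order as EPCAM.

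LGR5 was at the limit of detection. It lies at chr12:71439770-71586310 on the plus strand and its counts were 4, 0 and 1 in control and 0, 2 and 2 after SOX2 siRNA. The floor of 3 counts, taken as the smallest amount told from none, corresponded to between 0.0908 and 0.120 CPM, and only control replicate 1 was above it, at 0.121 CPM. No fold change is given for LGR5, since both group means lie under the floor. Such a floor covers counting error only, because PCR copies without molecular identifiers do not count independent molecules.

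Levels of different markers were compared per length, as CPM per kilobase of merged exon. In control the order was PODXL at 191 ± 2.19, CD24 at 65.2 ± 0.440, THY1 at 17.1 ± 0.639, CD9 at 10.4 ± 0.949, ABCG2 at 10.2 ± 0.353, CD44 at 9.11 ± 0.380, ALCAM at 5.64 ± 0.246, PROM1 at 3.41 ± 0.129 and EPCAM at 0.829 ± 0.585 CPM per kilobase (SD, n = 3). CD9 and ABCG2, neighbours in that order, overlapped in their libraries, and the other neighbours did not. After SOX2 siRNA, ABCG2 was at rank 4 with 15.5 ± 0.648 CPM per kilobase and CD9 at rank 7 with 5.47 ± 1.05 (SD, n = 3), overlapping ALCAM at 5.50 ± 0.358. Among the 16904 tested genes with a length, PODXL stood at the 99.4th percentile per length in control and the 98.5th after SOX2 siRNA. CD24 went from the 97.4th to the 92.8th percentile, CD9 from the 74.5th to the 58.1st, and ABCG2 from the 74.0th to the 83.0th. PODXL and CD24 thus held the first and second place in both groups although both fell. Merged exons count every isoform's sequence, so the level of a gene with many variant exons such as CD44 is understated.

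**Figure D4:**
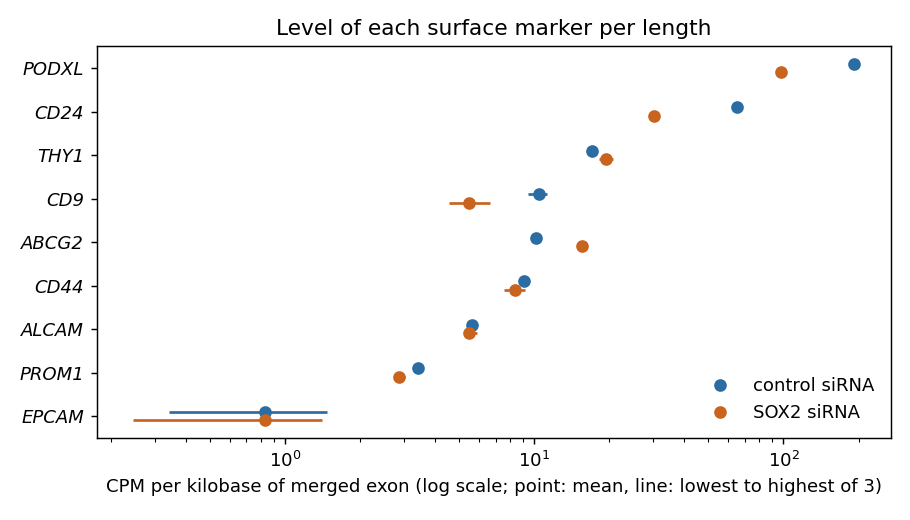
Level per kilobase of merged exon (CPM per kilobase, log axis) for the 9 tested surface markers; points are means of 3 libraries and lines run from the lowest to the highest library. PODXL and CD24 are the highest in both groups, and CD9 and ABCG2, close together in control, stand apart after SOX2 siRNA.

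The RefSeq promoter table (GRCh38.p14) held start regions of 6 of the 10 markers, CD24, PROM1, CD44, ALCAM, CD9 and ABCG2. Windows were the 250 bases upstream of the start, and are shown for CD24 and CD9, which fell, and for ABCG2, which rose, the 3 of them that moved furthest. Each is shown up to the first exon that GENCODE 29 places within the window, which leaves out 84 bases for CD9 and 165 for ABCG2. Both genes also have annotated starts further upstream, so these windows lie inside the genes' own spans, and that of CD24 lies outside its gene. Where a gene has several starts, the one with most GENCODE 29 basic transcripts starting within 100 bases was used, and on a tie the first listed. That number was 1 of 5 for CD24, 3 of 9 for CD9 and 1 of 2 for ABCG2. Which start these cells use most was not tested. Sequences run 5′ to 3′ on the gene's strand, and capitals mark GGGCGG, the GC box bound by Sp-family factors, on either strand.
CD24 (chr6:106975628-106975877, minus strand): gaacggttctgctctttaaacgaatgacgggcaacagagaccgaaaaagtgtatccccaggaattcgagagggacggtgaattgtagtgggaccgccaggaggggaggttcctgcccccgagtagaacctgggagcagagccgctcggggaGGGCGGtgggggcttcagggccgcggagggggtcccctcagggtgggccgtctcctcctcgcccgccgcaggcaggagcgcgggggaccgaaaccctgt
CD9 (chr12:6200150-6200315, plus strand): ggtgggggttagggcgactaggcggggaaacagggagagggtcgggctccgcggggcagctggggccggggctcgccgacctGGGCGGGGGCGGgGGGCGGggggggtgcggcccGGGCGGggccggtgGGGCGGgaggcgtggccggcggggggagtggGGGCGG
ABCG2 (chr4:88159025-88159109, minus strand): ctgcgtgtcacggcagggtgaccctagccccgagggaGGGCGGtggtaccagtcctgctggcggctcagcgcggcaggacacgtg

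The whole CD9 window held 6 GC boxes, all within the stretch shown, and was 76.8% G and C, against a median of 58.0% over the 35093 windows in the table. The CD24 window held 1 GC box at 65.6% G and C, and that of ABCG2 held 2 at 72.4%, 1 of them in the stretch shown. GC boxes were present in 42.6% of all windows. The cores ACAATG and ACAAAG, which SOX factors recognise, were searched on both strands and occurred in none of the 6 members' windows, against 9.29% and 13.7% of all windows. CCAAT likewise occurred in none of the 6 and in 32% of all windows. The CD44 and PROM1 windows also lie inside their genes' spans, and the exon rule used for the stretches shown would leave out all 250 bases for CD44. Absence says only that these letters are not in these windows.

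The genes whose pattern over the 6 libraries lay nearest to that of a member were found by Euclidean distance of log2 CPM centred on the control mean, among the 12119 tested genes whose log2 CPM averaged 2 or more. For PODXL they were EDNRB, an endothelin receptor, and A2M, a secreted protease inhibitor, at distances of 0.0642 and 0.0736. EDNRB went from 366 ± 12.0 to 188 ± 7.03 CPM and A2M from 324 ± 6.76 to 168 ± 1.93 CPM (SD, n = 3). The nearest to CD24 were the homeobox gene NKX1-2 and the cadherin gene CDH6, at distances of 0.0716 and 0.109. CDH6 went from 680 ± 12.3 to 314 ± 13.3 CPM (SD, n = 3). The nearest to ABCG2 were MN1 and GPSM3, at 0.0503 and 0.0634, with log2 fold changes of 0.59 and 0.62. With 6 libraries in 2 groups, nearness mostly means a like fold change.

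Partners of the members were read from lists written by name. Counts in each list stand beside 28.2% of all tested genes called, 13.4% lower and 14.8% higher. For PODXL and CD44, the list held other sialomucins, the proteins that link them to the actin cortex, and the enzymes that make and break hyaluronan. Of 15 tested genes, 4 were higher and 3 lower, with a median log2 fold change of 0.046. HAS3, a hyaluronan synthase, rose from 32.1 ± 1.37 to 84.1 ± 7.14 CPM (SD, n = 3), a log2 fold change of 1.39 (edgeR adjusted p = 1.38e-10). CEMIP2, a cell surface hyaluronidase, went down from 165 ± 6.05 to 85.1 ± 3.94 CPM (log2 fold change -0.95; edgeR adjusted p = 1.80e-11). ANK3, an ankyrin that ties membrane proteins to the cytoskeleton, was lower at -0.38 (edgeR adjusted p = 1.18e-05). Of the other sialomucins in that list, CD34 averaged 0.506 CPM in control and 0.529 CPM after SOX2 siRNA. PODXL2 averaged 13.2 CPM in control and 15.2 CPM after SOX2 siRNA (log2 fold change 0.20, edgeR adjusted p = 0.0529).

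EPCAM, CD44 and ALCAM are cut by proteases at the membrane. Of 15 tested genes for this cleavage and for binding partners, 4 were higher and 4 lower, with a median log2 fold change of 0.0064. MMP14, a membrane-bound metalloprotease, rose from 65.2 ± 0.771 to 106 ± 3.81 CPM (SD, n = 3), a log2 fold change of 0.70 (edgeR adjusted p = 6.52e-10). CLDN6, a tight junction protein of embryonal cells, averaged 146 CPM in control and 88.8 CPM after SOX2 siRNA (log2 fold change -0.71, SE 0.048; edgeR adjusted p = 1.15e-08).

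Among 22 tested tetraspanins and partners other than CD9, 6 were higher and 4 lower, with a median log2 fold change of -0.061. TSPAN18 was lower at -0.46, while TSPAN9 and TSPAN14 were higher at 0.45 and 0.42 (edgeR adjusted p = 3.05e-08, 3.84e-07 and 7.60e-07). CD81, another tetraspanin of the list, was at 161 and 166 CPM in control and after SOX2 siRNA. Its log2 fold change was 0.035 (edgeR adjusted p = 0.602). Its 95% interval ran from -0.055 to 0.12, above that of CD9.

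LGR5 is 1 of 3 related R-spondin receptors, and the other two were read beside it. LGR4 was the abundant one, at 263 ± 12.8 CPM in control and 126 ± 2.16 CPM after SOX2 siRNA (SD, n = 3), and fell (log2 fold change -1.05; edgeR adjusted p = 1.86e-12). LGR6 had 9 counts or fewer in every library. Of the 5 tested genes of this list, 4 were lower and 1 was higher, with a median log2 fold change of -0.15. RNF43, a ubiquitin ligase that removes Wnt receptors, and the Wnt co-receptor LRP6 were lower at -0.44 and -0.15 (edgeR adjusted p = 1.77e-06 and 0.00762). ZNRF3, the ligase related to RNF43, was lower at -0.14, and LRP5, the co-receptor related to LRP6, was the higher one at 0.42 (edgeR adjusted p = 0.0442 and 0.00948). Without control replicate 3 none of the list was called higher by edgeR. The R-spondin genes themselves, RSPO1 to RSPO4, had 11 counts or fewer in every library.

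Of 11 tested ABC transporters other than ABCG2, 4 were lower and 0 higher by edgeR, with a median log2 fold change of -0.021. At an unadjusted p under 0.05, 2 were higher, and limma-voom called 1 higher, ABCC3, and DESeq2 called 0. ABCB4, ABCC2 and ABCC4 were lower at -1.79, -0.88 and -0.21 (edgeR adjusted p = 0.00103, 0.00122 and 0.00489), from control means of 0.686, 4.45 and 33.7 CPM, and the other lower gene was ABCA1, a cholesterol exporter, at -0.38 (edgeR adjusted p = 0.00656). ABCB1, the multidrug transporter, had 7 counts or fewer in every library, and ABCC1 was at 70.7 and 70.4 CPM in control and after SOX2 siRNA.

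CD24 and THY1 need a GPI anchor, and PODXL and CD24 carry glycan epitopes. Among 28 tested GPI anchor genes, 6 were higher and 0 lower by edgeR, with a median log2 fold change of 0.027. In all 21.4% were called, against 28.2% of all tested genes in either direction and 14.8% higher. PIGH, PIGS and PIGK were higher at 0.54, 0.25 and 0.20 (edgeR adjusted p = 1.01e-04, 0.00161 and 0.00718). None was lower at an unadjusted p under 0.05, or by DESeq2 or limma-voom. Without SOX2 siRNA replicate 2, 3 of the list were called higher, and without SOX2 siRNA replicate 1, 2 were called lower. Among 16 tested glycan enzymes 4 were higher and 4 lower, with GALNT7 and GALNT1, which start O-linked chains, at 0.31 and 0.23, and C1GALT1, which extends them, at -0.26 (edgeR adjusted p = 4.43e-05, 4.24e-04 and 0.00534). The number of lower glycan enzymes was 2 when control replicate 2 or 3 or SOX2 siRNA replicate 2 or 3 was left out, and with DESeq2.

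Among 25 tested further surface markers of pluripotent or tumour cells, 8 were higher and 8 lower, 64.0% in all, with a median log2 fold change of 0.085. ITGA6, an integrin subunit used to sort stem cells, went down from 355 ± 6.46 to 181 ± 3.89 CPM (SD, n = 3), a log2 fold change of -0.97 (edgeR adjusted p = 8.12e-13). Its partner ITGB1 rose from 729 ± 22.6 to 1043 ± 18.3 CPM (log2 fold change 0.52; edgeR adjusted p = 3.52e-09). CD47, the signal that restrains phagocytes, rose from 135 ± 5.41 to 241 ± 13.3 CPM (log2 fold change 0.84; edgeR adjusted p = 2.19e-10). Without SOX2 siRNA replicate 2 the number of lower genes was 4 in place of 8. The sum of this list was 3561 to 3678 CPM in control and 3833 to 4008 CPM after SOX2 siRNA, while the sum of the 10 markers fell. ITGB1 alone rose by about as much as the list sum, and PODXL alone made up most of the fall in the other.

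**Figure D5:**
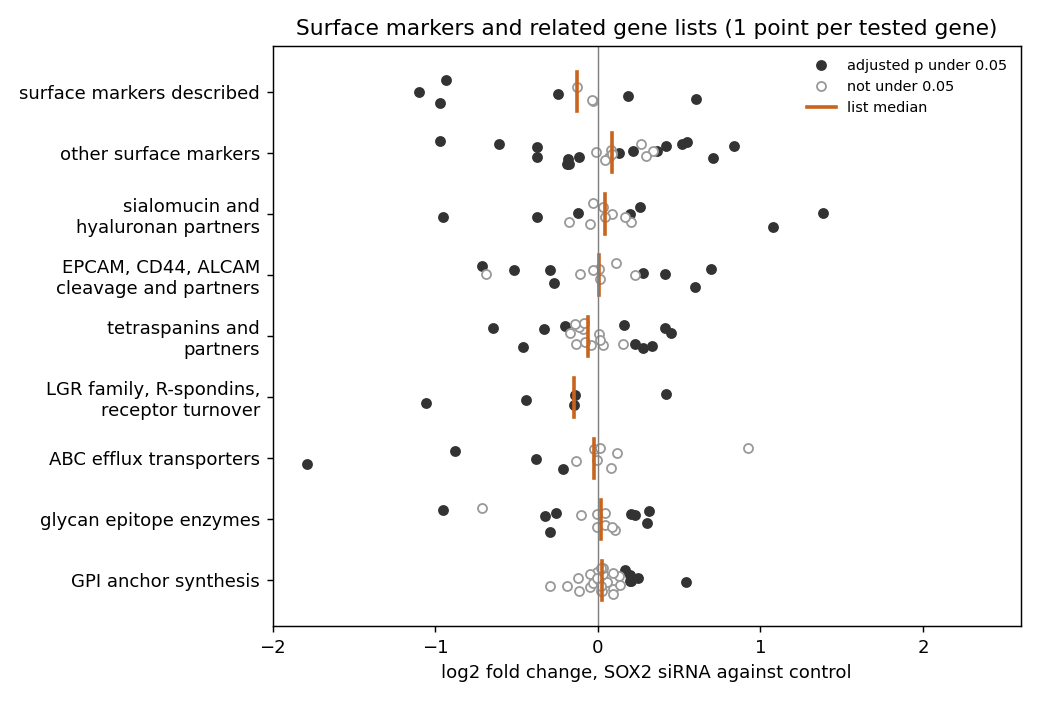
Log2 fold change of each tested gene in the surface marker set and in 8 related lists, SOX2 siRNA against control; filled points have an adjusted p under 0.05 and the orange line is the list median. Every list except ABC transporters and GPI anchor genes holds called genes on both sides of 0.

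Endothelial markers, which some surface marker panels share, also moved with the groups. Of 8 genes 6 were tested, 5 lower and 1 higher, with sums of 143 to 148 CPM in control and 116 to 118 CPM after SOX2 siRNA. PECAM1 went down from 64.1 ± 1.48 to 43.7 ± 0.544 CPM (SD, n = 3), a log2 fold change of -0.55 (edgeR adjusted p = 2.69e-08). CDH5 and KDR were lower at -0.71 and -0.30 (edgeR adjusted p = 5.49e-05 and 0.00348), VWF and TEK were the other lower genes, and TIE1 was higher. CLDN5 had 0 counts in every library and ERG 2 or fewer, and with DESeq2 or without both replicate 1 libraries 3 of the genes were called lower. The part of endothelial cells in the PODXL and CD24 differences was not tested.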

How the data were processed

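Messenger RNA was sequenced in 6 PA1 libraries, 3 per group, with groups taken from the treatment named in each title and columns matched by the identifier in each description. The authors deposited raw counts per gene symbol as whole numbers. The submitters' processing notes name bcl2fastq 2.20.0, STAR 2.7.3a, Salmon 0.14.1, DESeq2 1.28.1 and GRCh38.p13, with no role or order. Which tool made the counts, the annotation and the use of strand are not given in the sources used here.

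The counts were analysed with R 4.3.3 and edgeR 4.0.16: filterByExpr with a minimum count of 10, TMM scaling, and the quasi-likelihood F-test with robust=TRUE on group, fitted on the whole table with Benjamini-Hochberg adjustment and a threshold of 0.05. CPM uses TMM-scaled totals; log2 CPM uses a prior count of 2. Intervals are at the 95% level. Alternatives used DESeq2 1.42.0 and limma 3.58.1. The fits were tested on simulated data. GENCODE 29 (GRCh38) gave positions, overlaps and merged exon lengths for 96.1% of tested genes. Chromosome coordinates are the same in all patch releases of GRCh38.

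The markers and lists were chosen with earlier results of these data known. Genes named are the 10 markers, SOX2, the 3 smallest p-values among called genes of each list, and the 2 nearest patterns of the 3 markers with the smallest p. Chosen after their values were seen were the EPCAM-associated genes and CDH1, CD34, PODXL2, CD81, ESRP1, ESRP2, ABCB1, ABCC1, ABCC3, ABCA1, LGR6, ZNRF3, LRP5, VWF, TEK, TIE1, DNMT3B, RSPO1 to RSPO4, and the undetected cell type markers. POU5F1 was named from the PA1 identity list. L1TD1, DPPA4, TFF3, MUC16, KRT20, LUM and COL3A1 were also named after their values were seen. A gene that the rule names in the cleavage list is not reported here.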

Additional observations from a re-analysis of the deposited data

How the results depend on the processing

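Alternatives were other scalings (DESeq2 size factors, upper quartile, total counts), other low-count filters, limma-voom, the Wald test of DESeq2, a fit without the robust option, glmTreat against a 1.5-fold change, the replicate block and each library left out; leaving out both replicate 1 libraries was added after seeing the data. Of 144 values for the 9 tested markers, with glmTreat left out, 137 kept direction and call. EPCAM turned sign without control replicate 1 (0.73), without SOX2 siRNA replicate 2 (0.41) and without both replicate 1 libraries (0.099). CD44 became a call with no filter beyond 1 count (-0.12), with the replicate block (-0.13, adjusted p = 0.0364) and without SOX2 siRNA replicate 3. Against a 1.5-fold change glmTreat called 2 markers, CD24 and PODXL, both lower and 0 higher, and 497 genes in all, 265 higher and 232 lower, against 4964, 2599 and 2365. The causes were not tested, except that glmTreat asks for a larger change.

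With 1 library left out (leave-one-out), log2 fold changes ranged from -1.0 to -0.96 for PODXL, -1.13 to -1.09 for CD24, -1.09 to -0.82 for CD9, -0.29 to -0.21 for PROM1, -0.20 to -0.060 for CD44, -0.092 to -0.0048 for ALCAM, -0.65 to 0.73 for EPCAM, 0.57 to 0.63 for ABCG2 and 0.14 to 0.23 for THY1. Markers called ranged from 5 to 7, with 3 to 5 lower and 2 higher, and all calls from 3760 to 4863. CD9 lost its call without SOX2 siRNA replicate 2.

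Both groups carry replicate numbers 1 to 3. Same-numbered libraries did not deviate together (correlations across genes 0.087, -0.038 and -0.031), so the numbers were not taken as pairs; with the replicate block 7 markers and 5177 genes were called. Upper-quartile scaling made 45.8% of calls higher in place of 52.4%. The same check covered 36 other genes: SOX2 and, from each list, up to 3 called genes with the smallest p. Of their 574 values, 15 lost their call and none turned sign. Those 15 belong to CD14, COL1A1 and MUC1. Genes named outside that rule, such as LRP5, ZNRF3, ABCA1, VWF, TEK and TIE1, were not in this count. Depth limits LGR5, and the spread between libraries limits EPCAM.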

Other observations

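The spread seen in EPCAM was shared by a wider set of transcripts, counted here after the pattern had been seen. Of the tested genes, 164 had a highest library at least 3 times the lowest within both groups. Of these, 45 other than EPCAM had a Pearson correlation of at least 0.9 with EPCAM over the 6 libraries, given as a description. They were low, with a median control mean of 1.09 CPM and no library above 16.6 CPM in control. Their summed level was 153, 91.2 and 22.5 CPM in control replicates 1 to 3 and 147, 17.1 and 84.3 CPM in SOX2 siRNA replicates 1 to 3. Since they were chosen for their correlation with EPCAM, a sum that follows EPCAM is built into the choice. TSPAN8, a tetraspanin of digestive epithelium, stood at 6.05, 3.87 and 0.484 CPM in control and 5.96, 0.371 and 3.08 CPM after SOX2 siRNA, in the same order as EPCAM within each group. The other markers did not follow that order: over the 6 libraries the correlation with EPCAM on log2 CPM was 0.47 for CD44, 0.11 for CD9 and -0.33 for ALCAM, as descriptions. Whether these transcripts come from some of the cells or from other material was not tested.

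CD44, CD9 and THY1 were also uneven within the SOX2 siRNA group. Their coefficients of variation there were 9.69%, 19.2% and 6.76%, at the 98.6th, 99.2nd and 93.2nd percentile of tested genes within 1.5-fold of their level. CD9 was highest and THY1 lowest in SOX2 siRNA replicate 1, and CD9 was lowest and THY1 highest in replicate 3.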
